A study of Mus musculus with 20 samples.

Results

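*Lbx1* was examined as a viewpoint in capture Hi-C (cHi-C) maps of E11.5 mouse limb buds. The viewpoint was made of the 2 bins from 45305001 to 45315000 on chromosome 19 (mm9) out of the 392 bins of 5 kb in the captured interval, 44440001 to 46400000. The *Lbx1* gene (ENSMUSG00000025216.8, reverse strand) lies at 45307178 to 45310301, so that one bin holds its start and the other the rest of the gene. All pairs of these bins with another bin were taken, which gave 770 bin pairs of 75560 with a value in the wild-type, 766 of 74905 in *Dup*, 770 of 75818 in *Inv1*, 770 of 75801 in *Inv2*, 760 of 72739 in heterozygous *Dup* and 770 of 75664 in heterozygous *Inv1*.

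The study compared mouse lines carrying rearrangements of the *Lbx1*/*Fgf8* locus that are tied to split-hand/foot malformation with the wild-type. Fore- and hindlimb buds were pooled. The background was labelled c57bl6.J for the wild-type and G4 ES cells (a hybrid mouse line, edited and aggregated into embryos) for all mutants, whereas the study's methods also describe crosses of the founders to C57BL/6 and its single-cell data name a C57Bl6 background for *Dup*. How far the mutant embryos differed in background is thus not settled here, and such a difference cannot be told apart from the rearrangement. The homozygous *Dup* carried a tandem duplication, the homozygous *Inv1* and *Inv2* each an inversion, and the heterozygous *Dup* and *Inv1* 1 such allele beside a normal one. The wild-type, *Dup*, *Inv1* and *Inv2* maps each merged 4 libraries (3 biological and 1 technical replicate), the heterozygous *Inv1* map merged 3 biological replicates and the heterozygous *Dup* map held 1 library. One label of the heterozygous *Dup* library names an inversion while its title names *Dup*. Read pairs inside the duplicated interval over those outside it were 1.60 times the wild-type ratio in this library, 2.05 times in *Dup* and between 1.01 and 1.02 times in the 3 other mutant maps.

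*Lbx1* encodes a homeodomain transcription factor known for its role in the muscle precursors that migrate from the somites into the limb bud. A bulk limb bud map averages all cell types, of which these precursors are a small part. Chromatin of such a locus folds into topologically associating domains (TADs), within which contacts are frequent and between which boundaries, commonly bound by CTCF, reduce them. *Fgf8*, a growth factor gene of the apical ectodermal ridge (AER), lies in the neighbouring TAD, and its known AER enhancers lie mostly in the introns of *Fbxw4*. A virtual 4C profile reads the contacts of one viewpoint out of such a map.

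The rearrangements were cut at the following Cas9 target sites, which decide where *Lbx1* lies relative to these enhancers. Each is read 5′ to 3′ from mm9 at the exact match of the guide, with the PAM in capitals. The telomeric site of *Dup* also served for *Inv2*.
Dup centromeric (reverse strand, chr19:45251631-45251650): cccaggaatcgccgatgacaGGG
Dup and Inv2 telomeric (reverse strand, chr19:45792723-45792742): ttaaatttctccaagataagAGG
Inv1 centromeric (forward strand, chr19:45611034-45611053): ggcctcaatacacctccatgGGG
Inv1 telomeric (forward strand, chr19:45734085-45734104): ggtgacaccagtattcctcgAGG
Inv2 centromeric (forward strand, chr19:45332272-45332291): ctgacatttagctgtgatcgGGG

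The duplication spanned 541 kb, from 45251634 to 45792725, and thus ran from before *Lbx1* to beyond *Fbxw4* and ended short of *Fgf8*. *Inv1* spanned 123 kb, from 45611051 to 45734101, between 301 and 424 kb telomeric of the *Lbx1* start. *Inv2* spanned 460 kb, from 45332289 to 45792725, and began 22.0 kb from the *Lbx1* start. The middle of the enhancer region lay 399.7 kb from the *Lbx1* start in the wild-type and 105 kb in *Inv2*. In *Dup* the second copy of *Lbx1* came to lie 141 kb from the middle of the first copy of the enhancer region. Read pairs of the copies in *Dup* cannot be told apart.

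Each profile was scaled to 1000 units over all bins other than the viewpoint and 5 kb on either side of it, so that a value in units is a share of the *Lbx1* contacts in that map. The deposited contact signal was turned back into whole read pairs, and the profiles rested on 58932 read pairs in the wild-type, 166123 in *Dup*, 114453 in *Inv1*, 113527 in *Inv2*, 37773 in heterozygous *Dup* and 77870 in heterozygous *Inv1*. The intervals given are 95% counting intervals from these read pairs. They cover counting error only, and with 1 merged map per genotype no difference could be tested against the spread between embryos. The *Dup* maps keep the effect of the higher copy number, while the other maps are balanced to equal bin totals. The start bin, with 19 DpnII sites (GATC), gave 40143 of the wild-type read pairs and the gene bin, with 7 sites, 18789, against a median of 12 sites per bin.

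In the wild-type, *Lbx1* contacted the telomeric side more than the centromeric side, with 68.8% and 31.2% of the profile, and the median contact lay 182 kb away. The 50 kb on either side held 23.6% of the profile and the bins beyond 500 kb held 16.0%. Of the segments between genes, boundaries and breakpoints, the *Btrc* body (45445001 to 45610000) took 177 units and the interval between the *Inv2* breakpoint and the *Btrc* start (45335001 to 45435000) took 160.3 units. *Btrc* encodes the substrate receptor of a ubiquitin ligase. The *Tlx1* stretch on the centromeric side (45150001 to 45250000) took 97.4 units, and *Tlx1* is a homeobox gene.

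Contacts fall with distance, so the profile was also set against the mean of all wild-type bin pairs at the same distance. The near sequence lay below this mean. It stood at 0.461 times in the 35 kb from the centromeric *Dup* breakpoint to the centromeric boundary. At that boundary it stood at 0.639 times, and between the *Inv2* breakpoint and *Btrc* at 0.852 times. The *Btrc* body lay above it, at 1.57 times, as did the middle boundary with *Poll* and the start of *Dpcd* (45615001 to 45650000), at 2.93 times. By segment, the profile thus crossed the mean in *Btrc* and stayed above it up to and beyond *Fgf8*. The centromeric side gave a different picture, with 0.813 times in the *Tlx1* stretch, 0.440 times in the stretch of *Slf2* and *Twnk* and 0.426 times in the *Pax2* stretch.

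The highest bin over distance at 50 kb or more from the viewpoint was that of the *Fgf8* start, 45815001 to 45820000 and 507 kb away. It held 7.16 units from 444 read pairs, 5.48 times the mean at its distance (5.00 to 6.02). The next bin over distance, 45810001 to 45815000, lay at the end of *Fgf8* and reached 4.73 times. The third, 45615001 to 45620000 at 307 kb, lay 17.5 kb from the start of *Poll*, a DNA polymerase gene, and held 10.0 units at 4.12 times the mean (3.70 to 4.60). The fourth held the start of *Npm3*, a nucleoplasmin family gene, at 4.01 times, and the fifth lay 12.5 kb from the start of *Poll*, at 3.55 times. All 5 bins thus lay at the middle boundary or at *Fgf8* and the boundary beside it. The enhancer region (45650001 to 45770000) between these peaks took 69.7 units from 3836 read pairs, 1.66 times the mean, and the narrower interval of the AER enhancers in *Fbxw4* 28.5 units, 1.5 times the mean.

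**Figure D1:**
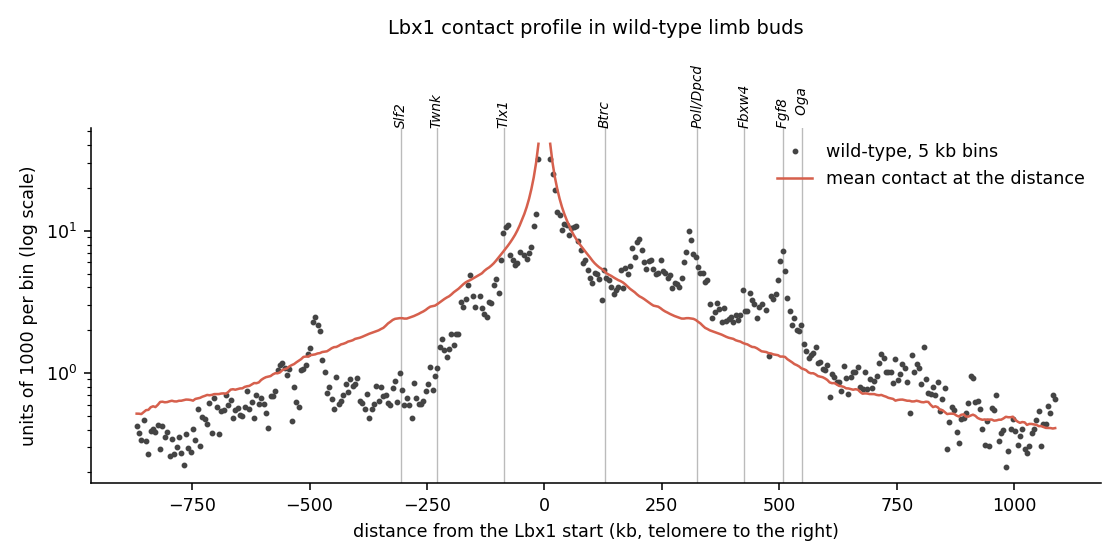
Wild-type profile of *Lbx1* in units of 1000 per 5 kb bin (log scale) against the distance from the *Lbx1* start in kb, with points for bins and a line for the mean contact at each distance. Peaks stand at the *Tlx1* side, inside *Btrc*, before *Poll* and at *Fgf8*, where the bin 507 kb away held 7.16 units, 5.48 times the mean.

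Local peaks, taken as the highest of 11 neighbouring bins at 1.3 times the mean at the distance or more and with 20 read pairs or more, showed how single features behaved across the genotypes. A peak inside *Btrc* at 45510001 to 45515000, 202 kb away, held 8.80 units in the wild-type, 9.96 in *Dup*, 7.03 in *Inv1*, 2.75 in *Inv2*, 8.01 in heterozygous *Dup* and 9.28 in heterozygous *Inv1*. It was thus kept in all maps but *Inv2*, in which the bin was moved and held 0.313 times the wild-type value (0.273 to 0.358). A peak in the bin with the end of *Tlx1* and the start of *Gm20424*, at −77.8 kb on the centromeric side, held 11.0 units in the wild-type, 5.86 in *Dup*, 11.2 in *Inv1*, 14.0 in *Inv2*, 7.57 in heterozygous *Dup* and 8.33 in heterozygous *Inv1*. It was lowest in the maps with the duplication, whose centromeric breakpoint lies between *Tlx1* and *Lbx1*. Heterozygous *Inv1*, with no breakpoint there, was also below the wild-type, at 0.756 times (0.678 to 0.843). This interval overlaps that of heterozygous *Dup*, at 0.688 times (0.595 to 0.795). A distant peak at −488 kb on the centromeric side, before *Pax2*, held 2.47 units in the wild-type, 1.43 in *Dup*, 3.56 in *Inv1*, 4.09 in *Inv2*, 1.85 in heterozygous *Dup* and 1.63 in heterozygous *Inv1*. Its values in the homozygous inversions were above the wild-type although no breakpoint lies on that side of *Lbx1*.

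By gene start, taken as the bin of the start and 1 bin on either side, wild-type *Lbx1* contacted *Tlx1* with 26.4 units, *Fgf8* with 18.5, *Poll* and *Dpcd* with 17.2 in the bins that they share, *Btrc* with 13.2, *Fbxw4* with 9.06, *Oga* with 5.74, *Twnk* with 3.56 and *Slf2* with 2.36. Over distance, the order was led by *Fgf8* at 4.74 times the mean, before *Poll* and *Dpcd* at 2.49, *Fbxw4* at 1.85, *Oga* at 1.76, *Tlx1* at 1.23, *Btrc* at 0.846, *Twnk* at 0.389 and *Slf2* at 0.324. *Oga* encodes the enzyme that removes O-GlcNAc from proteins, *Twnk* a mitochondrial DNA helicase, and the annotation lists them as *Mgea5* and *Peo1* and *Slf2* as *Fam178a*. Wild-type profiles over distance that were most like that of *Lbx1* belonged to *Tlx1* (Pearson's r = 0.646 over 352 bins), *Kazald1* (0.578 over 352 bins) and *Btrc* (0.454 over 351 bins), among protein-coding genes of the interval. These profiles come from the same map and share its bins, and genes that lie near each other share most of their surroundings.

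The question for *Dup* was how *Lbx1* contacts the enhancers when a second copy of the interval follows the first. In *Dup* the *Lbx1* profile was higher over the duplicated interval and lower on either side of it. The enhancer region took 102 units against 69.7 in the wild-type, a ratio of 1.46 (1.41 to 1.52) from 16202 read pairs. The *Btrc* start (45435001 to 45445000) took 13.8 units against 9.97, a ratio of 1.39 (1.24 to 1.56), the *Btrc* body 210.4 against 177 (1.19, 1.17 to 1.22) and the middle boundary 58.3 against 47.7 (1.22, 1.17 to 1.28). The interval between the *Inv2* breakpoint and *Btrc* took 178 units, a ratio of 1.11. In this scaling the ratio to wild-type was thus above 1 in each of these segments. It was higher in the enhancer region than in the *Btrc* body or the interval before it.

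With each profile scaled to 1000, *Dup* was below the wild-type in every segment outside the duplication. The *Tlx1* stretch took 54.7 units against 97.4, a ratio of 0.561 (0.541 to 0.582), and the *Fgf8* bins 7.40 against 13.3, a ratio of 0.556 (0.509 to 0.607). The ratio was 0.594 in the 15 kb before *Fgf8*, 0.632 at the telomeric boundary, 0.659 in the *Slf2* stretch, 0.676 in the *Pax2* stretch, 0.699 and 0.752 at the far centromeric and telomeric ends and 0.739 in the stretch from *Oga* on. The duplicated interval as a whole took 77.4% of the *Dup* profile and 65.5% of the wild-type profile, and the units gained in it equal those lost outside it because each profile sums to 1000. The 3 lowest of these ratios belonged to the *Fgf8* bins, the *Tlx1* stretch and the 15 kb before *Fgf8*, which lie nearest to the breakpoints.

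The reference for the *Dup* ratios decides part of these values. When the profile was scaled only over bins outside the duplication, the enhancer region stood at 2.23 times the wild-type and the *Btrc* body at 1.82 times, while *Tlx1* and *Fgf8* stayed below the wild-type, at 0.857 and 0.849. When the map was balanced to equal bin totals the values were 1.29, 1.07, 0.787 and 0.837 in the same order. The *Tlx1* and *Fgf8* contacts were thus lower and the enhancer region contacts higher than the wild-type in all 3 scalings, while the far telomeric end stood at 0.752, 1.15 and 1.00. The other outer stretches also changed side when scaled outside the duplication, to 1.01 in the *Slf2* stretch, 1.03 in the *Pax2* stretch, 1.07 at the far centromeric end and 1.13 from *Oga* on. With the maps scaled jointly at each distance, the far centromeric end stood at 1.13, the stretch from *Oga* on at 1.23 and the far telomeric end at 1.52. Lower *Dup* contact far from the breakpoints thus depends on the scaling. So does higher contact close to *Lbx1* inside the duplication. The interval between the *Inv2* breakpoint and *Btrc* stood at 0.994 with joint scaling and 1.00 balanced. The near telomeric side (45320001 to 45330000) moved from 1.05 to 0.912 and 0.934. The 35 kb from the centromeric *Dup* breakpoint to the centromeric boundary moved from 1.07 to 0.918 and 0.925. From distance alone, with all copies summed and wild-type decay, a ratio of 2.52 was expected in the enhancer region and 1.46 was observed, 0.521 was expected in the *Tlx1* stretch and 0.561 observed, and 0.648 was expected at *Fgf8* and 0.556 observed.

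Of 341 bins with 20 or more wild-type read pairs, 15 (4.40%) were at least 1.5 times higher in *Dup* and 101 (29.6%) at least 1.5 times lower. Over all other viewpoints of the interval, 9.32% of bins were higher and 17.9% lower by this rule. Of the 15 higher bins, 12 lay among the 24 of the enhancer region, 2 among the 3 measured bins between it and the telomeric breakpoint and 1 between *Lbx1* and *Btrc*. The highest ratios stood in the bin 45785001 to 45790000 beside the telomeric breakpoint (1.33 units in the wild-type, 2.59 in *Dup*, 1.95 times, 1.40 to 2.74) and in 2 bins inside *Fbxw4* (1.77 and 1.76 times). The lowest stood far telomeric, in *Nolc1* (0.783 and 0.320 units, 0.409 times, 0.264 to 0.633) and in 2 bins of *Gbf1* (0.421 and 0.448 times), where the wild-type bins held 35, 34 and 22 read pairs. *Nolc1* encodes a nucleolar phosphoprotein and *Gbf1* an exchange factor of the Golgi.

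**Figure D2:**
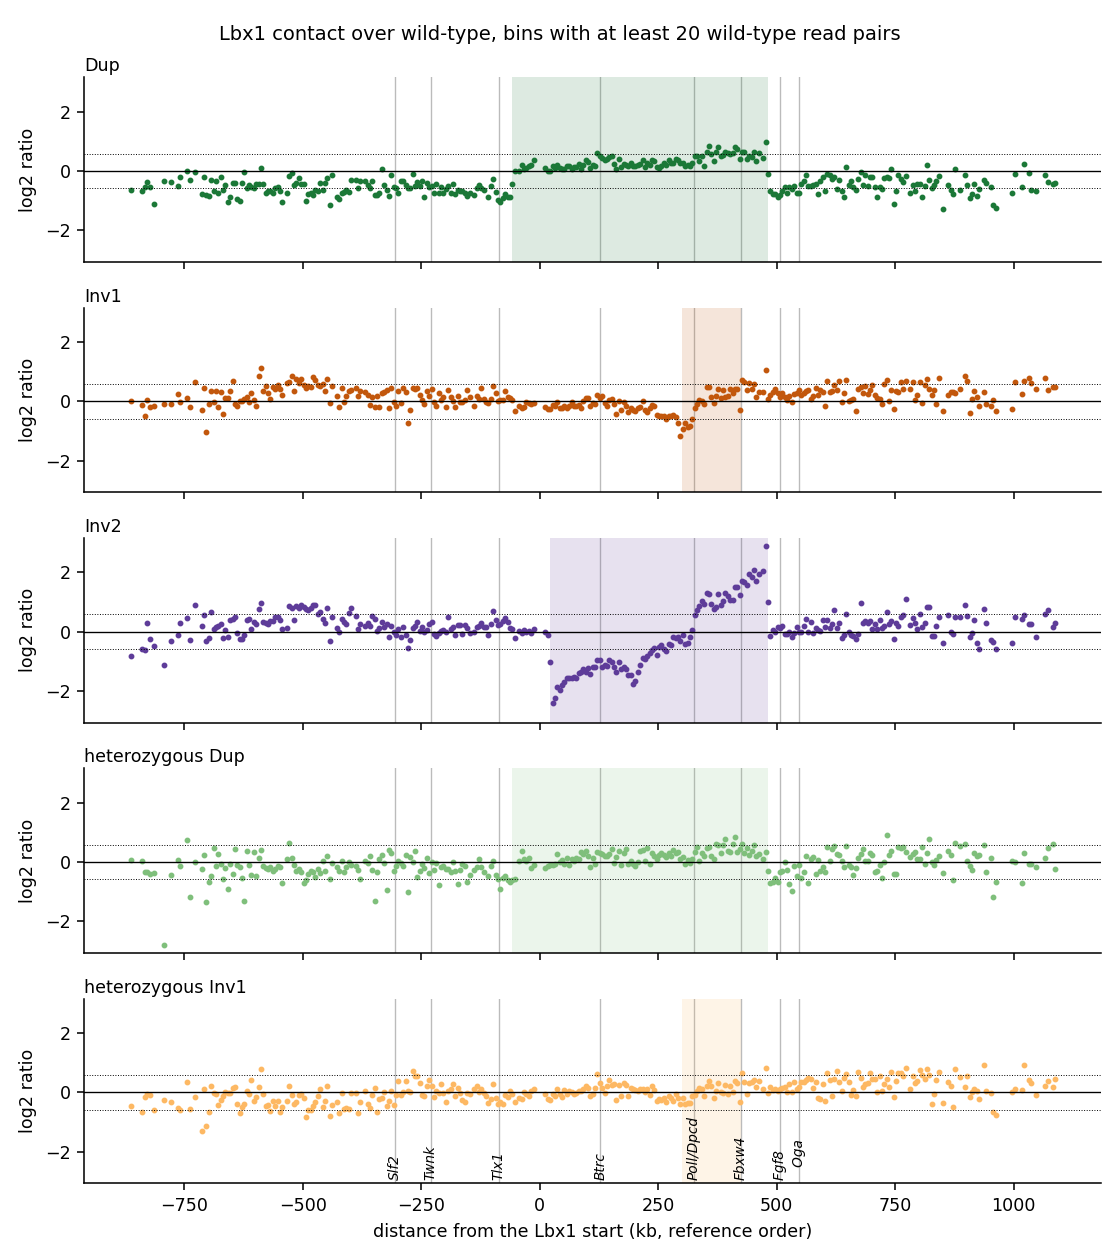
Log2 ratio of the *Lbx1* profile to wild-type for bins with at least 20 wild-type read pairs, by distance from the *Lbx1* start in the reference order (kb), with the rearranged interval shaded and dotted lines at 1.5 times. *Dup* stood above 0 inside its interval and below 0 on both sides, *Inv1* dipped at its centromeric breakpoint, and *Inv2* ran from 0.190 times at its near end to 7.33 times at its far end.

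*Inv1* leaves *Lbx1*, *Btrc* and *Fgf8* in place and turns the sequence between, which holds the middle boundary and most of the enhancer region. The lowest segment ratio stood at the middle boundary, which took 33.5 units in *Inv1* against 47.7 in the wild-type, a ratio of 0.703 (0.667 to 0.741). The *Btrc* body before it lost more units, with 143 against 177 (0.810, 0.790 to 0.831). The enhancer region took 85.2 units against 69.7, a ratio of 1.22 (1.18 to 1.27), from 9491 read pairs. Its 80 kb inside the inversion stood at 1.17 times (52.6 against 45.1 units), and its 35 kb outside it, which kept their place, at 1.42 times (29.5 against 20.8 units, 1.32 to 1.53). The higher part thus lay outside the inverted sequence.

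Several stretches far from the inversion stood above the wild-type by about as much. The ratio was 1.27 at the far centromeric end (1.21 to 1.33) and in the *Pax2* stretch, 1.20 in the stretch from *Oga* on and 1.34 at the far telomeric end (1.26 to 1.42), none of which was moved. The unmoved *Slf2* and *Tlx1* stretches stood closer to the wild-type, at 1.05 (0.993 to 1.10) and 1.09. Bins beyond 500 kb held 19.8% of the *Inv1* profile and 16.0% of the wild-type profile, and over the whole map 13.7% of contact between bins that are not neighbours lay beyond 500 kb in *Inv1* against 11.6% in the wild-type. With the maps scaled jointly at each distance, the enhancer region stood at 1.12 times, its outer part at 1.28 times, the far telomeric end at 1.12 times and the middle boundary at 0.697 times. The lower value at the middle boundary was therefore nearly the same in either scaling, whereas the enhancer region as a whole did not stand above the far telomeric end in either. From the wild-type decay and the new distances alone, a ratio of 0.743 was expected at the middle boundary and 1.12 in the enhancer region.

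The start bins of genes in or beside the inversion followed these values. *Poll* and *Dpcd*, inside it, took 13.8 units against 17.2 (0.804, 0.744 to 0.868), and *Fbxw4*, whose start lies at its telomeric end, took 10.9 against 9.06 (1.20, 1.07 to 1.36). The bins taken for *Fbxw4* span the telomeric cut. The bin that holds both its start and the cut stood at 3.07 against 3.80 units (0.807, 0.637 to 1.02), an interval that reached 1. *Fgf8* took 21.6 against 18.5 (1.17, 1.09 to 1.25), *Btrc* 14.6 against 13.2 (1.10, 0.998 to 1.22) and *Tlx1* 28 against 26.4 (1.06, 0.992 to 1.13). The intervals of *Btrc* and *Tlx1* also reached 1. The value at *Fgf8* depends on the bin factors of the balanced maps. Its 2 gene bins stood at 1.15 times in the balanced maps, below both far ends, but at 1.41 times when read pairs were taken without bin factors, above the 1.32 and 1.26 of the far telomeric and centromeric ends in that setting. With joint scaling at each distance they stood at 1.02 times. Over the 23 inverted bins, the absolute differences from the wild-type summed to 22.9 units when each bin stayed at its reference place and to 52.1 units when each was set at its new place. The inverted bins were thus nearer to their own wild-type values than to those of the places that they came to hold, although the segment ratios lay near those expected from distance. In the new order the middle boundary lay 385 to 419.7 kb from *Lbx1* and held 33.5 units, 1.98 times what the wild-type had at that place (1.83 to 2.14), whereas the enhancer bins that came to lie 305 to 385 kb away held 0.694 times (0.666 to 0.723).

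Of 342 bins, 36 (10.5%) were at least 1.5 times higher in *Inv1* and 10 (2.92%) lower, against 7.98% and 2.67% over all other viewpoints, so that these shares lay near those of the rest of the interval. The lower bins held 4 of the 7 of the middle boundary and 3 of the *Btrc* body. Of the higher bins, 10 lay at the far centromeric end, 12 at the far telomeric end and 4 in the enhancer region, all in its outer part. The lowest bin, 45605001 to 45610000 at the end of *Btrc*, held 6.06 units in the wild-type and 2.71 in *Inv1* (0.447 times, 0.384 to 0.521), and the third lowest held the breakpoint itself, with 7.04 and 3.72 units. The second lowest lay in *Sec31b*, far centromeric, on 32 wild-type read pairs. The highest lay at −588 kb on the centromeric side (0.409 and 0.895 units, 2.19 times, 1.44 to 3.31), the second was again 45785001 to 45790000 (1.33 and 2.75 units, 2.07 times) and the third held the start of *Elovl3*, a fatty acid elongase gene (0.527 and 0.958 units, 1.82 times). Each of these 3 bins rested on 40 or fewer wild-type read pairs (28, 40 and 28).

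*Inv2* places the enhancers between *Lbx1* and *Btrc* and turns *Btrc*, so that its start comes to lie 369.7 to 379.7 kb from *Lbx1*. In *Inv2* the *Lbx1* profile changed more than in the other rearrangements, with 224 of 1000 units at other bins than in the wild-type, against 120.0 in *Dup* and 91.2 in *Inv1*. These sums over bins include counting error, and heterozygous *Dup*, with the fewest read pairs, reached 89.3. Summed by segment, the values were 203 in *Inv2*, 117 in *Dup*, 78.6 in *Inv1* and 64.3 in heterozygous *Dup*. The enhancer region took 178 units against 69.7, a ratio of 2.56 (2.46 to 2.65) from 19685 read pairs. The ratio increased along the region, from 2.07 (1.95 to 2.19) in the interval of the AER enhancers to 3.45 (3.23 to 3.69) in the outer part and 4.57 (3.93 to 5.31) in the 3 measured bins between it and the breakpoint. The interval between the *Inv2* breakpoint and *Btrc* took 51.5 units against 160.3, a ratio of 0.321 (0.311 to 0.332), the *Btrc* start 4.77 against 9.97 (0.479, 0.414 to 0.553) and the *Btrc* body 94.9 against 177 (0.538, 0.523 to 0.553). The middle boundary, brought from 305 to 339.7 kb to 165 to 199.7 kb from *Lbx1*, took 52.6 against 47.7 units (1.10, 1.05 to 1.16). The sequence brought near thus held more of the profile, and that carried away held less.

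Outside the inversion the ratio differed between segments. *Fgf8* took 14.6 units against 13.3 (1.10, 1.01 to 1.19), the telomeric boundary 11.7 against 11.3 (1.04, 0.949 to 1.14) and the *Tlx1* stretch 116 against 97.4 (1.20, 1.16 to 1.24). From read pairs without bin factors *Fgf8* stood at 1.32 times. The *Slf2* stretch (1.04, 0.988 to 1.10) and the centromeric boundary (1.05) were close to the wild-type. So were the 35 kb between that boundary and the centromeric *Dup* breakpoint (0.983). The far ends and the *Pax2* stretch stood between 1.26 and 1.34 times, and bins beyond 500 kb held 14.0% of contact in the whole *Inv2* map against 11.6% in the wild-type. The centromeric side of *Lbx1* took 36.0% of the profile against 31.2%.

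Read in the inverted order, the *Inv2* profile had parts on and off the wild-type curve. Over the 89 inverted bins, the absolute differences from the wild-type summed to 147 units with each bin at its new place and to 339 with each at its reference place, the opposite order to that in *Inv1*. The 3 measured bins next to the telomeric breakpoint, now 24.7 to 44.7 kb from *Lbx1*, held 32.7 units where the wild-type had 37.9 (0.863, 0.813 to 0.915). The outer enhancer part, now 44.7 to 79.7 kb away, held 71.7 units where the wild-type had 68 (1.05, 1.01 to 1.10), and the sequence from between *Lbx1* and *Btrc*, now 379.7 to 479.7 kb away, held 48.7 where the wild-type had 51.5 (0.946, 0.900 to 0.995). The interval of the AER enhancers, now at 109.7 to 159.7 kb, held 58.9 units against 42.7 (1.38, 1.31 to 1.45), and the middle boundary, now at 165 to 199.7 kb, 52.6 against 42.5 (1.24, 1.18 to 1.3). The *Btrc* body, now at 205 to 369.7 kb, held 94.9 units against 175 (0.543, 0.528 to 0.558). Compared with the wild-type at the same distance, the profile was thus below at the near end of the inversion, close in the outer enhancer part, above in the interval of the AER enhancers and at the middle boundary, below in the *Btrc* body and close again at the far end. From distance alone a ratio of 3.91 was expected in the enhancer region, 0.172 in the interval between *Lbx1* and *Btrc* and 0.757 in the *Btrc* body, against the 2.56, 0.321 and 0.538 observed. At the middle boundary 1.71 was expected and 1.10 observed.

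**Figure D3:**
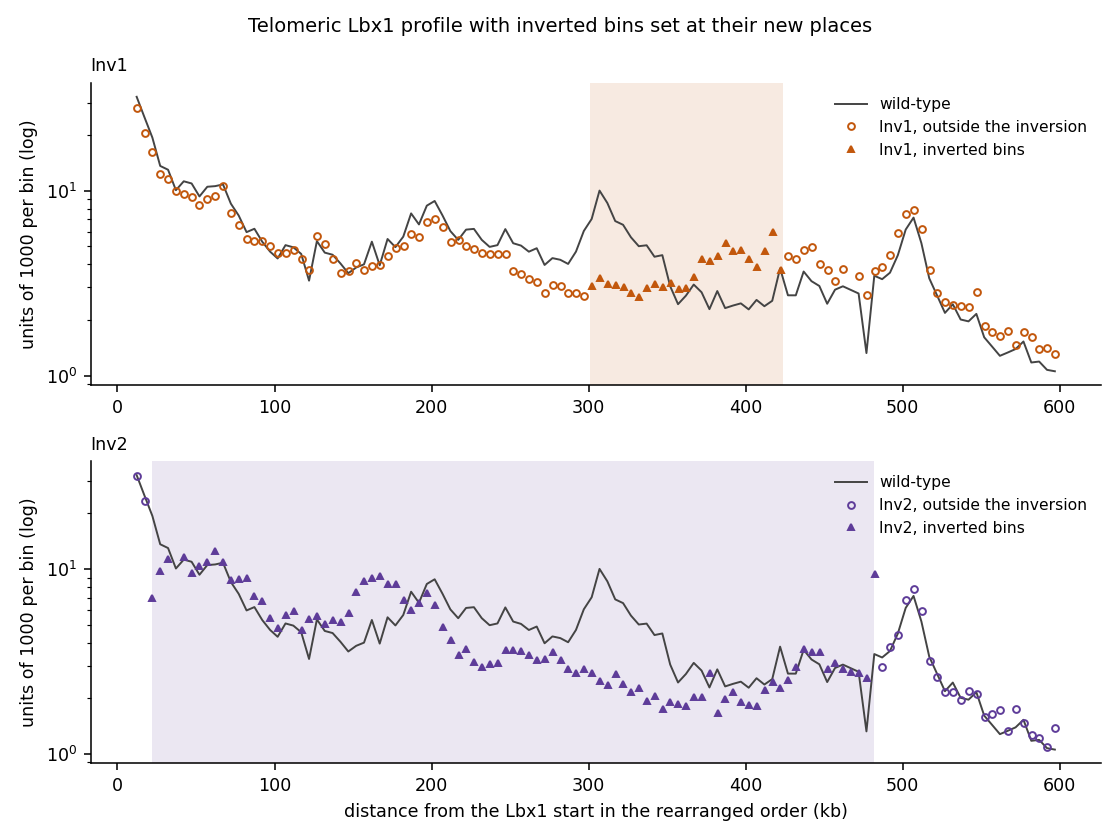
Telomeric part of the *Lbx1* profile in units of 1000 per bin (log scale) by distance in the rearranged order (kb), with inverted bins as triangles, other bins as open circles, the wild-type as a line and the inverted interval shaded. In *Inv1* the bins now about 307 kb away lie below the wild-type peak of 10.0 units there, and in *Inv2* the enhancer bins near *Lbx1* run along or above the wild-type line while the *Btrc* bins beyond 205 kb run below it.

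Of 342 bins, 63 (18.4%) were at least 1.5 times higher in *Inv2* and 52 (15.2%) at least 1.5 times lower, against 10.6% and 5.72% over all other viewpoints. The 24 bins of the enhancer region and the 3 measured bins beyond it were all among the higher ones. The 20 bins between the *Inv2* breakpoint and *Btrc*, both bins of the *Btrc* start and 24 of the 33 of the *Btrc* body were among the lower ones. The highest bin, 45785001 to 45790000, lies next to the bin of the breakpoint and held 1.33 units in the wild-type and 9.72 in *Inv2* (7.33 times, 5.32 to 10.1), followed by 45760001 to 45765000 (2.45 and 10.4 units, 4.24 times) and 45780001 to 45785000 (2.78 and 11.4 units, 4.09 times). The lowest bins lay at the other end, at 45335001 to 45340000 (13.6 and 2.58 units, 0.190 times, 0.170 to 0.212), 45340001 to 45345000 (0.210 times) and 45350001 to 45355000 (0.257 times). The bin 45785001 to 45790000 was thus among the 3 highest in all 3 homozygous mutants, on 40 wild-type read pairs, and in *Inv1* it lay outside the inversion. All 3 ratios share the same wild-type value, which was low beside its neighbours, with 1.33 units against 2.78 and 3.47. In *Inv1* the bin was also below its neighbours, with 2.75 units against 3.45 and 3.69.

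Of the gene starts inside *Inv2*, those brought nearer to *Lbx1* were higher than in the wild-type and that of *Btrc*, carried further away, was lower. *Fbxw4* took 24.9 units against 9.06 in the wild-type (2.74, 2.45 to 3.07), *Poll* and *Dpcd* 23.4 against 17.2 (1.36, 1.27 to 1.46) and *Btrc* 6.45 against 13.2 (0.487, 0.432 to 0.550). *Fgf8* took 20.6 against 18.5 (1.11, 1.04 to 1.19) and *Tlx1* 32.0 against 26.4 (1.21, 1.14 to 1.29). Across the homozygous mutants, *Btrc* thus ranged from 0.487 times in *Inv2* over 1.10 in *Inv1* to 1.42 in *Dup* (1.29 to 1.56). Over the bin of its start and 1 bin on either side, *Fbxw4* was above the wild-type in all 3, at 1.20 in *Inv1*, 1.48 in *Dup* and 2.74 in *Inv2*. In *Inv1* these bins span the cut, and the bin of the start alone stood at 0.807 (0.637 to 1.02). *Fgf8* stood at 0.574 in *Dup* (0.534 to 0.617) and slightly above 1 in the inversions. *Tlx1* stood at 0.524 in *Dup* (0.488 to 0.562), *Slf2* at 0.665, *Twnk* at 0.654 and *Oga* at 0.640.

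**Figure D4:**
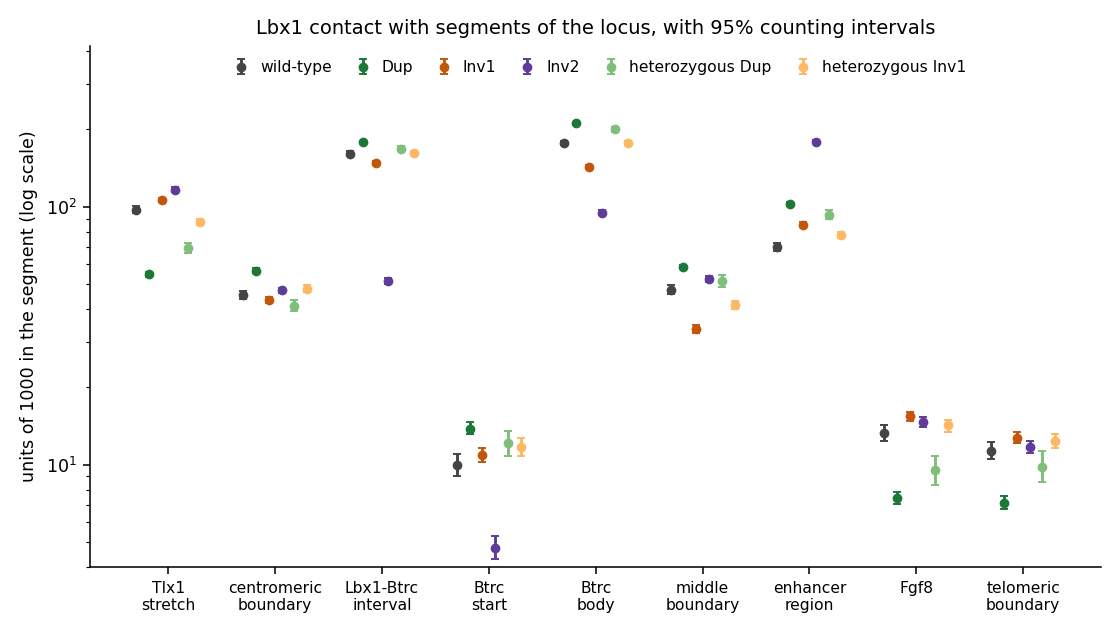
*Lbx1* contact with 9 segments of the locus in units of 1000 (log scale) for the 6 genotypes, with bars for 95% counting intervals. The enhancer region ran from 69.7 units in the wild-type over 85.2 in *Inv1* and 102 in *Dup* to 178 in *Inv2*, while *Fgf8* was lowest in *Dup*, at 7.40 units.

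The heterozygotes were compared with the wild-type and the homozygote. In heterozygous *Dup* the enhancer region took 93.2 units from 3440 read pairs, 1.34 times the wild-type (1.27 to 1.41), the *Tlx1* stretch 69.1 units (0.709, 0.673 to 0.747), *Fgf8* 9.49 units (0.713, 0.615 to 0.826) and the *Btrc* start 12.1 units (1.21, 1.04 to 1.41). On a line from the wild-type at 0 to the homozygote at 1, these values stood at 0.731 in the enhancer region (0.623 to 0.838), 0.664 in the *Tlx1* stretch (0.592 to 0.735), 0.647 at *Fgf8* and 0.552 at the *Btrc* start. Intervals of such positions, here and for heterozygous *Inv1*, carry the counting error of the heterozygote only. Both ends of the line were taken as exact, so these intervals are too narrow. The enhancer region lay 1.09 times above an equal mixture of the wild-type and *Dup* profiles and 1.02 times above one in which 2 of 3 viewpoint copies lie on the mutant allele. In these 4 segments the heterozygote was thus between the wild-type and the homozygote. At the far telomeric end it was not, with 43.0 units against 38.0 in the wild-type and 28.6 in *Dup*. Beside *Lbx1* and inside the duplication it lay below both, with 41.3 units at the centromeric boundary against 45.3 in the wild-type and 56.5 in *Dup*, and 50.2 units on the near telomeric side against 57.2 and 59.9. Higher bins numbered 12 of 341 (3.52%) and lower bins 30 (8.80%), against 13.3% and 8.20% over all other viewpoints, and 5 of the higher ones lay in the enhancer region. This map had the fewest read pairs of the 6.

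In heterozygous *Inv1* the middle boundary took 41.6 units, 0.871 times the wild-type (0.827 to 0.919) and at 0.434 of the way to the homozygote (0.333 to 0.535). The outer enhancer part took 25.6 units (1.23, 1.14 to 1.34), at 0.557 of the way, and the enhancer region 77.6 units (1.11, 1.07 to 1.16), where an equal mixture of wild-type and *Inv1* gives 77.4. The *Btrc* body took 177 units, as in the wild-type, against 143 in *Inv1*. The far telomeric end, at 1.29 times (1.21 to 1.37), went with *Inv1*, and the far centromeric end, at 0.830 times (0.787 to 0.876), went the other way from the 1.27 of *Inv1*. With joint scaling at each distance the enhancer region stood at 1.04 times and the middle boundary at 0.846. *Fgf8*, with 14.2 units between 13.3 and 15.4, and the far telomeric end also lay between the wild-type and the homozygote. The *Tlx1* stretch, with 87.4 units against 97.4 and 106, and the far centromeric end lay below both, so that values of an intermediate size were found at the inversion and away from it but not throughout. Higher bins numbered 20 of 342 (5.85%) and lower bins 18 (5.26%), against 4.85% and 4.34% over all other viewpoints, with 1 bin of the enhancer region among the higher ones.

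**Figure D5:**
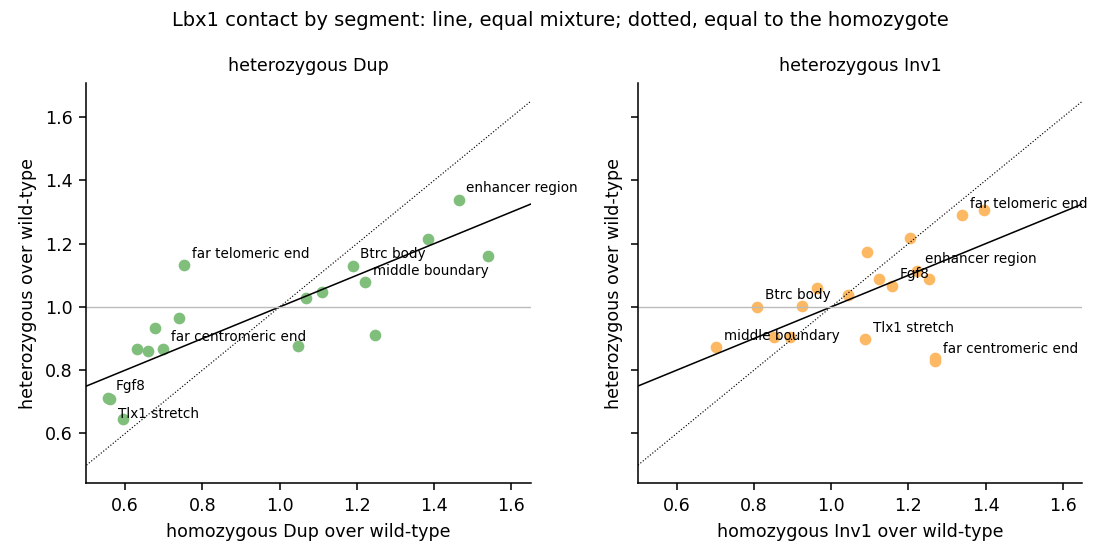
*Lbx1* contact over wild-type by segment, in the heterozygote (vertical axis) against the homozygote (horizontal axis), for *Dup* on the left and *Inv1* on the right, with a solid line for an equal mixture and a dotted line for a value equal to the homozygote. The enhancer region of heterozygous *Dup*, at 1.34 times, lay above the mixture line, and the far centromeric end of heterozygous *Inv1*, at 0.830 times, lay below it.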

How the data were processed

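cHi-C was done on 20 libraries of limb buds. The authors mapped the reads to mm9 with HiCUP and Bowtie2 2.4.2, filtered and deduplicated the read pairs, merged replicates and deposited contact signal in 5 kb bins, normalized with KR (Juicer tools 1.19.02) or, for *Dup*, LOIC. For the heterozygous LOIC map, the copy number used was not given in the sources read. Whole read pairs were recovered for 100% of values in each map, within 0.01. The 3 deposited subtraction maps, on a difference score, were not used. Profiles, ratios and the 95% counting intervals (1.96 standard errors of the log) were computed in Python 3.11.15 (numpy 2.4.6, scipy 1.17.1). They were drawn with matplotlib 3.10.9, and the steps were tested on simulated data. For the highest bins over distance and the highest and lowest ratio bins, intervals used pooled read pairs without the factors of the viewpoint bins. These can be slightly narrower, as in the *Gbf1* bin at 0.421 times in *Dup*, with 0.270 to 0.655 against 0.264 to 0.671. Segments of whole bins follow annotated genes, Cas9 sites and domains read by eye from the study's maps, each end being known to no better than 1 bin. Genes named were those of the locus and its flanks, those nearest to the 5 highest wild-type bins over distance, those with a start in the 3 highest and 3 lowest bins of each homozygous mutant, and the 3 with the most similar profiles. *Gm20424*, *Pax2* and genes that only overlap such bins were named, and the local peaks were defined, after values were seen. The viewpoint, segments and lists were chosen with earlier results of these data known. Ratios were recomputed with either viewpoint bin alone, 4 bins, a wider margin of 25 kb, read pairs without bin factors, joint scaling at each distance and, for *Dup*, balancing or scaling outside the duplication.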

Additional observations from a re-analysis of the deposited data

How the results depend on the processing

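Of 100 segment ratios, 34 were at least 1.3 or at most 0.8, and 29 of these kept their direction under every alternative that gave a value. The enhancer region as a whole was not among the 100. Its parts inside and outside *Inv1* were counted instead, with the AER interval counted again beside the inner part that contains it. Those that did not were *Dup* values far from the breakpoints. With joint scaling at each distance the far centromeric end turned to 1.13, the stretch from *Oga* on to 1.23 and the far telomeric end to 1.52. With balancing to equal bin totals the last 2 became 1.00 and 1.00, and with scaling outside the duplication these 3 became 1.07, 1.13 and 1.15, the *Pax2* stretch 1.03 and the *Slf2* stretch 1.01. The *Dup* enhancer region ratio was 1.35 with joint scaling, 1.29 balanced and 2.23 scaled outside. That of heterozygous *Dup* was 1.16, 1.22 and 1.56 in the same order. In the main scaling its 93.2 units stood at 1.02 times the 91.1 units of the mixture with 2 of 3 copies. With joint scaling and scaling outside, however, the heterozygous ratio lay closer to the wild-type than to *Dup*, and balanced it lay closer to *Dup*. *Fgf8* stood at 1.41 in *Inv1* and 1.32 in *Inv2* from read pairs without bin factors, against 1.15 and 1.10. The *Inv1* enhancer region ratio was 1.27 from read pairs without bin factors, 1.12 with joint scaling and 1.15 in the narrower AER interval. That of *Inv2* was 2.76 and 2.33 with the start bin or the gene bin alone, 2.66 from read pairs, 2.43 with joint scaling and 2.07 in the AER interval. For heterozygous *Inv1* it was 1.04 and 1.07 in the last 2. Over the median contact at the distance, the wild-type stood at 1.86 in the enhancer region and 3.68 at the middle boundary. Counts of bins depend on the fold. The counts that follow stand without the number of bins tested or the share over all other viewpoints. Not every genotype is listed in each setting, and the bins tested change with the minimum of read pairs. They show how a count moves with its setting, and not whether it stands out from the rest of the interval. At 1.3 times, 35 were higher and 174 lower in *Dup*, 88 and 22 in *Inv1*, 98 higher in *Inv2*, 44 and 59 in heterozygous *Dup* and 53 and 46 in heterozygous *Inv1*. At 2 times these were 0 and 11, 2 and 2, 24, 0 and 6, and 0 and 2. Smoothed over 3 bins, 6 were lower in *Inv1*, 4 higher and 17 lower in heterozygous *Dup* and 12 higher and 5 lower in heterozygous *Inv1*. With a minimum of 5 wild-type read pairs, 58 were higher in *Inv1*, 20 in heterozygous *Dup* and 32 in heterozygous *Inv1*. With a minimum of 50, 62 were lower in *Dup*, 14 higher in *Inv1*, 5 higher and 17 lower in heterozygous *Dup* and 6 higher and 7 lower in heterozygous *Inv1*. A margin of 25 kb leaves no value at the centromeric boundary and on the near telomeric side. The cause of these changes was not tested. No paired analysis was possible because each genotype has 1 merged map. Single far bins held few wild-type read pairs, so depth limits them more than segments.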
